A study of Mus musculus with 21 samples.

Results

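The RNA-seq libraries of the newborn brain compared Jak1 knock-in (KI) with wild-type (WT) mice. They were chosen by their titles, Brain KI and Brain WT, and make up 7 of the 21 libraries of the series, with 2 from KI mice and 5 from WT mice. All 7 mice were labelled C57BL/6 (C57BL/6J in the study's methods) at postnatal day 0, and each library was labelled as the brain of 1 mouse. The KI mice were heterozygous for H595D in Jak1 together with the silent changes I596I and Y597Y, and the WT mice carried none of them. Per the study's methods, the allele was made with CRISPR/Cas9 in zygotes and passed on through a mosaic male, so the KI mice share 1 line, and no mice with the silent changes alone are among the libraries. The study asked whether the allele alters gene expression in the brain as well as in skin and liver.

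JAK1 is a tyrosine kinase bound to cytokine receptors. In the developing brain it acts below gp130, the receptor subunit shared by LIF, CNTF, cardiotrophin and IL-6, and phosphorylates STAT3, which enters the nucleus and switches on astrocyte genes such as Gfap, Aqp4 and S100b in neural progenitors once neurogenesis wanes. SOCS proteins and phosphatases end the signal. The mutated residue lies in the pseudokinase domain, which restrains the kinase domain.

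To show where the edit lies, the reference coding sequence around codon 595 is given 5′ to 3′ on the coding (minus) strand of chr4:100837150-100837200 (NCBIM37, mm9), within exon 13 of the 25 exons of Jak1, with the edited histidine codon in capitals.
Jak1: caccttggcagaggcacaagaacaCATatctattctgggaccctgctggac

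Between 26549326 and 35606374 reads were counted on genes per brain library. The files hold counts per gene and do not show the substitution itself, so the genotype of each library rests on its label. Levels are given as CPM, the count of a gene relative to the scaled total of its library, with TMM scaling (trimmed mean of M-values). The labels do not say whether the mice came from separate litters, and p-values measure the spread between these libraries. Reads of the Y-linked genes marked KI 2 and WT 3 as male (5600 and 6044 counts, against 11 to 52 in the other 5 libraries).

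Before the genotypes were compared, the libraries were checked against their label. Pan-neuronal markers such as Tubb3, Map2 and Snap25 together held 13142 to 16993 CPM in all 7 libraries. Genes of single brain regions, by contrast, differed strongly between the WT libraries. Tbr1, a transcription factor of cortical projection neurons in the telencephalon, stood at 16.7 and 18.4 CPM in KI 1 and KI 2 and at 11.9, 1.46, 0.660, 14.9 and 75.9 CPM in WT 1 to WT 5. WT 2 and WT 3 lay far below the other libraries, and WT 5 far above. The interneuron genes Dlx2 and Lhx6 were also lowest in WT 2 and WT 3, at 2.30 CPM or less and 2.85 CPM or less.

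At the other end of the neural axis, Hoxa5, which is expressed in the caudal hindbrain and spinal cord, stood at 41.3 and 55.0 CPM in KI 1 and KI 2 and at 120, 1.43, 93.5, 46.7 and 3.07 CPM in WT 1 to WT 5. WT 2 and WT 5 thus lay far below the other libraries for this gene. Hoxb5 gave 43.7 and 51.7 CPM in the KI libraries and 98.9, 0.551, 74.7, 46.7 and 1.40 CPM in WT 1 to WT 5. Tcf7l2, a marker of thalamus and habenula, was at 28.7 CPM in WT 1 and between 198 and 443 CPM in the other 6 libraries. Ttr, the transthyretin gene of the choroid plexus, ranged from 20.7 CPM in WT 2 to 2551 CPM in WT 5, with the KI libraries at 874 and 963 CPM. Col1a1, a collagen gene of meninges and other connective tissue, ranged from 10.1 CPM in WT 1 to 137 CPM in WT 2.

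**Figure D1:**
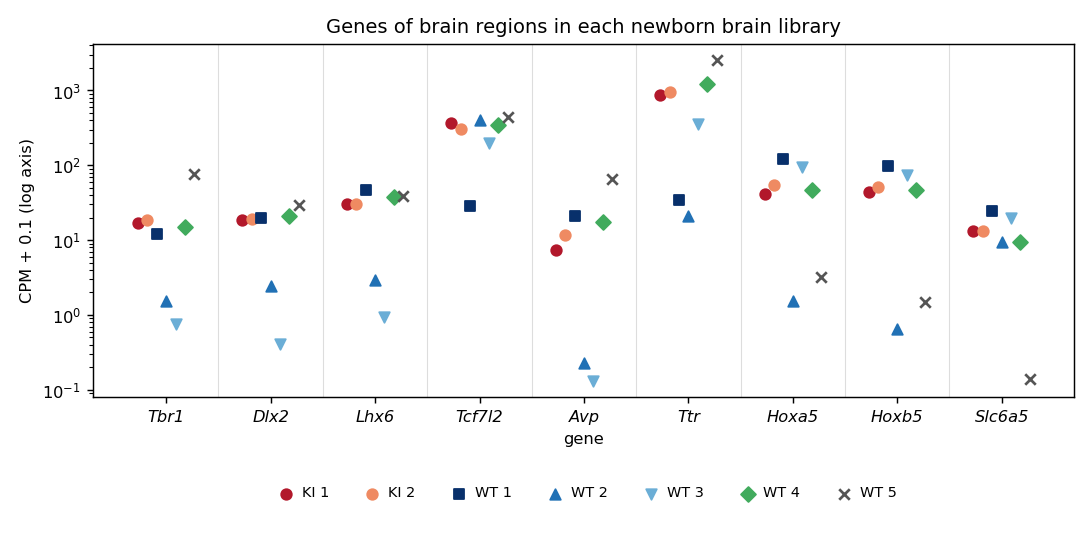
CPM plus 0.1 on a log axis for 9 genes of single brain regions, one point per newborn brain library (2 KI, circles; 5 WT, other symbols). WT 2 and WT 3 hold few telencephalic reads (Tbr1, Dlx2, Lhx6), WT 2 and WT 5 few Hox reads, and both KI libraries, WT 1 and WT 4 hold both kinds.

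The libraries labelled brain therefore differed in the regions they hold, and the 2 KI libraries were, for Tbr1 and Hoxa5, closest to WT 4. These genes were singled out after their values were seen. Because of them, the overall counts and several lists and genes are also given with WT 1 and WT 4 as the only controls, the WT libraries in which both Tbr1 and Hoxa5 exceeded 10 CPM. WT 5 stood apart in a further way. It had a median correlation of 0.928 with the other libraries across genes (0.973 to 0.979 for the others), and 3500 of its genes lay over 2-fold from the mean of the other 6 libraries, against 552 to 848 genes for any other library. Reads falling on overlapping genes made up 1.76% of its uniquely mapped reads, against 1.15% to 1.19% in the other 6 libraries. In bulk tissue, fewer cells of a type and less RNA per cell cannot be told apart.

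With all 7 libraries, 16322 genes were tested with edgeR's quasi-likelihood test, and a gene was called at a Benjamini-Hochberg adjusted p under 0.1. None was called, with 0 genes higher (0%) and 0 lower (0%) in KI, and the smallest adjusted p was 0.255. At an unadjusted p under 0.05, 457 genes were higher and 1275 lower. DESeq2 called 80 genes higher and 524 lower in the same libraries.

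Without WT 5, 672 of 16222 genes (4.14%) were called higher and 1026 (6.32%) lower in the KI brains. Leaving out KI 1 as well gave 1 call and leaving out KI 2 gave 0, in fits that hold a single KI library and assume that it varies like the WT libraries. With Y-linked expression as a covariate, 564 genes were called, 174 higher and 390 lower. With WT 1 and WT 4 as the only controls, 553 genes were called higher and 722 lower of 16013 tested. Of these 1275 genes, 923 were also among the 1698 called without WT 5, which is 72.4% of the former and 54.4% of the latter. Both KI libraries lay above all 5 WT libraries for 1836 of 16322 genes (11.2%) and below all 5 for 2578 (15.8%). Among the genes called without WT 5, both KI libraries lay outside the range of all 5 WT libraries for 550 of the 672 higher and 957 of the 1026 lower genes. These genes were called for their difference from WT 1 to WT 4, so that only the position of WT 5 is new in these counts. WT 5 and the KI libraries had opposite trends with transcript length, described with the length classes, whose part in the counts was not tested.

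The rule named the 10 largest differences in each direction among genes called without WT 5, with a mean of at least 5 CPM and both KI libraries outside the range of all 5 WT libraries. Vwf, the von Willebrand factor gene of endothelial cells (chr6:125496792-125636697), stood at 56.8 and 54.0 CPM in KI 1 and KI 2 and at 17.7, 42.2, 27.6, 25.7 and 22.9 CPM in WT 1 to WT 5. Both KI libraries exceeded every WT library. The log2 fold change was 1.03 (SE 0.284, adjusted p = 0.304, edgeR) with all 7 libraries and 0.99 (SE 0.264, adjusted p = 0.0707, edgeR) without WT 5.

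Col8a1, which encodes a short-chain collagen of vessel walls, was at 16.9 and 17.7 CPM in the KI libraries and at 4.63, 11.9, 9.02, 8.63 and 11.97 CPM in WT 1 to WT 5. Loxl2, a collagen cross-linking enzyme, was at 11.1 and 13.8 CPM against 5.30, 9.40, 6.10, 5.83 and 4.55 CPM. For both genes WT 2 was among the highest of WT 1 to WT 4, and WT 2 also held the most Col1a1. Their log2 fold changes without WT 5 were 1.04 (adjusted p = 0.0828, edgeR) for Col8a1 and 0.92 (adjusted p = 0.0682, edgeR) for Loxl2. Slc16a3, a lactate exporter, had 19.2 and 15.5 CPM in the KI libraries and 9.02, 11.8, 7.23, 5.66 and 11.02 CPM in WT 1 to WT 5 (log2 fold change 1.06, adjusted p = 0.0612 without WT 5, edgeR).

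Piezo1 is a stretch-activated ion channel, Lrp5 a Wnt coreceptor, Celsr1 a planar cell polarity cadherin and Itprip a protein that binds the inositol trisphosphate receptor. Their log2 fold changes without WT 5 lay between 0.85 for Celsr1 and 0.91 for Itprip. With an offset for transcript length, described with the length classes, Vwf, Col8a1, Loxl2, Slc16a3 and Piezo1 were no longer called (adjusted p from 0.113 to 0.176, edgeR), at log2 fold changes of 0.72 to 0.97. Lars2, the mitochondrial leucyl-tRNA synthetase gene, was at 390 and 446 CPM in the KI libraries and at 165, 204, 257, 265 and 254 CPM in WT 1 to WT 5 (log2 fold change 0.93, SE 0.170, adjusted p = 0.0363 without WT 5, edgeR).

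Mir6236 had the largest difference of the 10. Its gene row is given here with its mature product, as listed by RefSeq for GRCm38.p6, with the seed (bases 2 to 8) in capitals.
mmu-miR-6236: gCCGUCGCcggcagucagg
The row stood at 84.2 and 91.3 CPM in KI 1 and KI 2 and at 25.3, 36.4, 48.5, 49.0 and 69.2 CPM in WT 1 to WT 5. The log2 fold change was 1.16 without WT 5 (SE 0.222, adjusted p = 0.0374, edgeR). These libraries were made from poly-A RNA, so the row counts longer reads over the locus and not the mature miRNA. WT 1 was the lowest library for both Mir6236 and Lars2.

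Among the genes that were lower, Clk1 (chr1:58467033-58480910), a kinase of splicing factors, stood at 49.4 and 57.4 CPM in KI 1 and KI 2 and at 221, 95.7, 177, 87.0 and 126 CPM in WT 1 to WT 5. Both KI libraries lay below every WT library, although WT 1 to WT 5 spread over more than 2-fold. Its log2 fold change was -1.40 (SE 0.383, adjusted p = 0.292, edgeR) with all 7 libraries and -1.42 (SE 0.371, adjusted p = 0.0656, edgeR) without WT 5. Its paralog Clk4 was called too, with a log2 fold change of -0.74 without WT 5 (adjusted p = 0.0764, edgeR). Of the 4 CLK kinases, listed after values were seen, these 2 were called, both lower, beside 6.32% of all genes called lower.

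Snhg8, a host gene of small nucleolar RNAs (snoRNAs), was at 21.8 and 20.7 CPM in the KI libraries and at 72.8, 46.9, 48.8, 42.5 and 72.0 CPM in WT 1 to WT 5. Gas5, another snoRNA host (chr1:162964553-162968670), was at 50.2 and 51.0 CPM against 120, 91.4, 94.3, 101 and 111 CPM. Its log2 fold change was -1.03 (SE 0.147, adjusted p = 0.255, edgeR) with all 7 libraries and -0.99 (SE 0.120, adjusted p = 0.0363, edgeR) without WT 5. SnoRNA host genes carry snoRNAs in their introns, and their spliced transcripts are short-lived. Of 11 such genes, listed after Gas5 and Snhg8 had been seen, 9 were called lower and 0 higher without WT 5, and 8 were called lower with a length offset, which leaves the 3 without an annotated length as they were. All 11 had both KI libraries below all 5 WT libraries, and their summed level was 199 and 187 CPM in KI 1 and KI 2 against 353 to 505 CPM in the WT libraries. Over all genes, 6.32% were called lower without WT 5 and 3.68% with the offset, and 15.8% had both KI libraries below all 5 WT libraries.

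Uqcrb, of respiratory complex III, stood at 34.6 and 27.5 CPM in the KI libraries and at 107, 85.8, 66.8, 59.6 and 75.7 CPM in WT 1 to WT 5. Med21, of the Mediator complex, was at 26.4 and 21.1 CPM against 79.6, 60.1, 53.8, 43.9 and 55.8 CPM. Rpl39, a ribosomal protein gene with many pseudogene copies, was at 6.89 and 7.55 CPM against 23.7, 20.1, 14.7, 14.2 and 34.4 CPM, and its level is uncertain because reads may be shared with copies. Rab26os, 2010107E04Rik, Smim18, Gm15421 and Gm561 completed the 10, with log2 fold changes without WT 5 from -1.55 for Rab26os to -1.28 for Gm561. With the length offset all 10 were still called (adjusted p from 0.0681 to 0.0881, edgeR). The log2 fold changes of Uqcrb, Rpl39, 2010107E04Rik, Gm15421 and Gm561 then shrank to between -0.82 and -0.70, while Med21 and Clk1 stood at -1.22 and -1.55. Rab26os, Smim18 and Snhg8 have no annotated length, and the offset left them as they were. Rab26os is an antisense transcript, and without strand information its reads cannot be told apart from those of its partner.

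**Figure D2:**
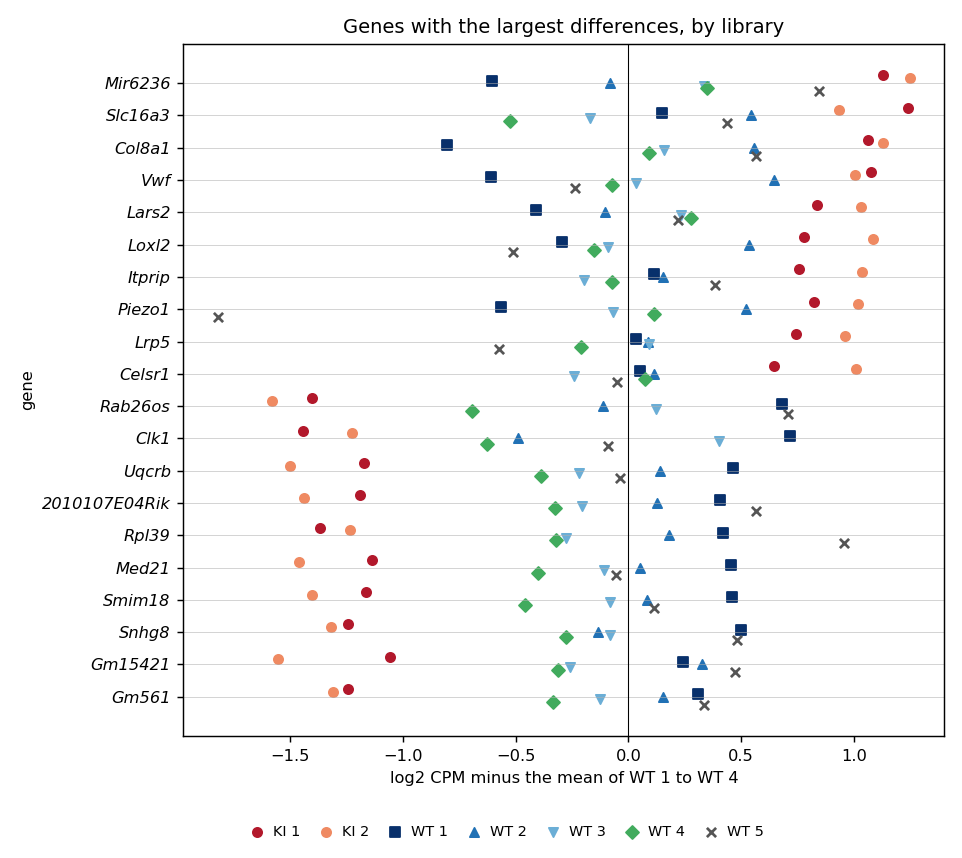
Level of the 20 named genes in each brain library as log2 CPM minus the mean of WT 1 to WT 4 (x axis), one point per library. By the rule that chose the genes, the KI circles lie outside all WT points, WT 5 (cross) included.

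A second rule took the 5 genes with the smallest p in each direction with all 7 libraries. All 10 had an adjusted p of 0.255 (edgeR), so none was called in that fit. Without WT 5 all 10 were called (adjusted p from 0.0363 to 0.0374, edgeR). Ctxn2, a small membrane protein of neurons, had the smallest p, with 19.6 and 19.8 CPM in KI 1 and KI 2 and 54.0, 48.7, 43.8, 38.3 and 52.3 CPM in WT 1 to WT 5. Gas5, Gm561, Pfdn4 (a subunit of the prefoldin chaperone) and 2900076A07Rik were the others that were lower. On the higher side, beside Celsr1, stood Podxl, a sialomucin of vessel lumens, with 54.0 and 51.0 CPM in the KI libraries and 31.6, 32.6, 28.0, 30.8 and 36.6 CPM in WT 1 to WT 5. Kif26a, an atypical kinesin, gave 55.5 and 53.1 CPM against 34.8, 29.1, 23.9, 34.5 and 25.9 CPM.

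The other 2 of these genes, Cd5l and Marco, belong to macrophages. Cd5l, which encodes a secreted protein of tissue macrophages, had 61 and 68 reads in KI 1 and KI 2 and 10, 4, 2, 6 and 2 reads in WT 1 to WT 5. Its log2 fold change was 3.55 (SE 0.514, adjusted p = 0.255, edgeR) with all 7 libraries and 3.43 (SE 0.502, adjusted p = 0.0363, edgeR) without WT 5. Marco, a scavenger receptor, had 29 and 34 reads in the KI brains and 1, 0, 2, 5 and 0 reads in the WT brains. Both genes were therefore at less than 2 CPM in every brain library. Liver macrophages express both genes at high levels, and the livers of these mice held 3987 to 10339 Cd5l reads. By library total, without TMM scaling, Cd5l was at 321 and 276 CPM in the KI livers and at 115 to 203 CPM in the WT livers. Marco overlapped there, at 136 and 81.4 CPM against 74.1 to 110 CPM. In skin, Cd5l had 7 and 42 reads in KI and 1 to 6 in WT. The Cd5l difference was therefore not particular to the brain. Clec4f and Vsig4, markers of liver macrophages, had at most 3 and 0 reads in any brain library, and Alb, the albumin gene of hepatocytes, had 9 and 194 reads in the KI brains and 7 to 213 in the WT brains.

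Transcript length went with the direction of the difference across all tested genes. In genes whose longest annotated transcript is under 1 kb, 0 of 973 were called higher and 299 (30.7%) lower without WT 5. From 1 to 2 kb, 21 were called higher and 359 lower of 3115. From 2 to 4 kb the counts were 191 and 280 of 6658. From 4 to 8 kb they turned, with 367 called higher and 64 lower of 4358. At 8 kb and over, 77 were called higher and 1 lower of 679.

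The median log2 fold change without WT 5 ran along these classes from -0.46 under 1 kb through -0.14, 0.01 and 0.11 to 0.14 at 8 kb and over, against 0.01 over all genes tested. With all 7 libraries the same medians were -0.68, -0.30, -0.03, 0.15 and 0.24, against -0.02 over all genes. Gene span, introns included, gave a smaller range. Genes under 5 kb had a median of -0.12 without WT 5 and genes of 100 kb and over one of 0.11, with 13.2% of the former called lower and 7.73% of the latter called higher.

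Each library was described by its slope, the change in log2 CPM per doubling of transcript length relative to the mean of WT 1 to WT 4, over 15872 genes. KI 1 and KI 2 had slopes of 0.13 and 0.16, and WT 1 to WT 5 had slopes of -0.06, -0.01, 0.05, 0.02 and -0.35. The KI libraries lay above all WT libraries, and WT 5 lay far below the rest, so that the KI libraries and WT 5 depart from WT 1 to WT 4 in opposite directions. The difference of 0.22 between the means did not pass an exact permutation test (two-sided, p = 0.190, adjusted p = 0.286 over 3 tissues). The smallest p that 2 against 5 libraries allow is 0.0476. In the liver of the same mice the KI slopes were the lower ones, -0.10 and -0.06 against -0.04 to 0.05 in WT (exact permutation test, p = 0.0952, adjusted p = 0.286).

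**Figure D3:**
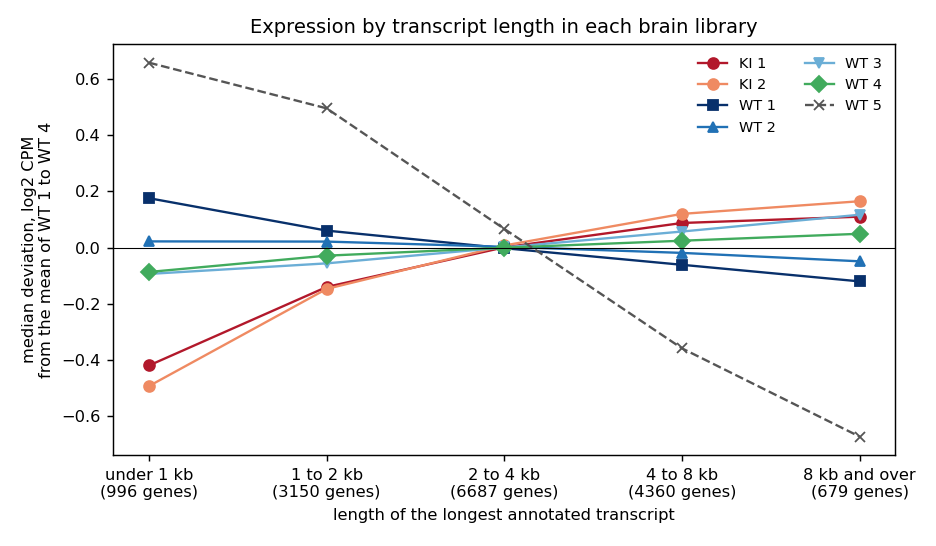
Median deviation of log2 CPM from the mean of WT 1 to WT 4 (y axis) for genes in 5 classes of transcript length (x axis, genes tested in brackets), one line per brain library. The KI lines start at -0.42 and -0.49 under 1 kb and end at 0.11 and 0.17 at 8 kb and over, while the dashed line of WT 5 runs from 0.66 down to -0.67.

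The share of uniquely mapped reads outside annotated genes was 14.9% in both KI libraries, 16.2% to 18.3% in WT 1 to WT 4 and 13.4% in WT 5, and its part in the trend was not tested. The study's methods give RNA integrity for skin, blood and liver samples and name no value for brain. As an alternative, the trend with length was removed from each library with a smooth offset. Without WT 5, 219 genes (1.35%) were then called higher and 597 (3.68%) lower. Of the 1698 genes called without the offset, 706 (41.6%) were also called with it, all 706 in the same direction, and they made up 86.5% of the 816 calls.

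Families of short genes are described by how many of their members were called without WT 5. Over all genes 6.32% were called lower. By transcript length the share was 30.7% under 1 kb, 11.5% from 1 to 2 kb and 4.21% from 2 to 4 kb. Sm and LSM proteins form the rings around spliceosomal RNAs and around decaying mRNA, and 12 of the 18 were called lower and 0 higher. Their summed level was 578 and 548 CPM in KI 1 and KI 2 against 787 to 1386 CPM in the WT libraries, and the median log2 fold change of the list was -0.77 without WT 5. Snrpe, an Sm core protein with the largest difference of the list, stood at 22.1 and 14.9 CPM in the KI libraries and at 56.7, 42.6, 37.2, 35.4 and 59.9 CPM in WT 1 to WT 5. Lsm3 was called too (log2 fold change -0.93, adjusted p = 0.0365 without WT 5, edgeR). With the length offset the median of the list was -0.44 and 8 genes were called lower.

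Of 11 small subunits of RNA polymerase II and elongin, 8 were called lower and 0 higher, with a median of -0.58 that became -0.27 with the length offset, where 2 were called. Protein import into mitochondria, the TIM and TOM translocases and the small TIM chaperones, had 10 of 15 genes called lower and 0 higher. Tomm7 of the outer membrane pore stood at 36.6 and 31.7 CPM in the KI libraries and at 98.6, 72.8, 65.1, 56.3 and 122 CPM in WT 1 to WT 5. Timm8b, a small chaperone of the intermembrane space, was at 83.8 and 67.0 CPM against 208, 177, 143, 134 and 175 CPM. Both genes were lower in KI than in every WT library. The median of the list was -0.46, and -0.27 with the length offset, where 5 genes were called lower.

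Ubiquitin-like proteins, the small tags joined to other proteins, had 7 of 10 tested genes called lower, led by Ubl5 (68.1 and 59.7 CPM in KI 1 and KI 2, and 128, 118, 105, 101 and 200 CPM in WT 1 to WT 5). Dynein is the motor of retrograde axonal transport. Of 5 light chains tested, 3 were called lower, among them Dynlrb1 (204 and 179 CPM in KI, and 353, 312, 293, 287 and 480 CPM in WT 1 to WT 5), while of 7 heavy and intermediate chains and partners 1 was called higher and 0 lower. Of the 6 small subunits of the anaphase-promoting complex, 2 were called lower. Among 10 heat shock genes 1 was called, the short mitochondrial cochaperone Hspe1, with a log2 fold change of -0.99 without WT 5 (adjusted p = 0.0396, edgeR), and the median of that list was -0.07.

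Families of long genes were read against 4.14% of all genes, 8.42% of genes of 4 to 8 kb and 11.3% of genes of 8 kb and over called higher without WT 5. Postsynaptic scaffold genes, which hold glutamate and GABA receptors at the synapse, had 6 of 14 called higher and 0 lower without WT 5. Shank2 stood at 86.7 and 87.3 CPM in KI 1 and KI 2, at 56.7, 60.2, 59.8 and 68.3 CPM in WT 1 to WT 4 and at 5.91 CPM in WT 5. Its KI libraries exceeded all WT libraries, and its log2 fold change without WT 5 was 0.53 (SE 0.0879, adjusted p = 0.0363, edgeR). Shank1 was at 286 and 302 CPM in the KI libraries and at 178, 236, 233, 244 and 52.0 CPM in WT 1 to WT 5. The median of the list was 0.24, and 0.12 with the length offset, where 1 gene was called. With WT 1 and WT 4 as the only controls 2 were called higher, beside 553 of all 16013 genes tested.

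Of 26 genes linked to autism, 6 were called higher and 0 lower without WT 5. Grin2b, an NMDA receptor subunit, was at 27.3 and 25.3 CPM in the KI libraries and at 16.4, 18.9, 18.5, 16.4 and 4.63 CPM in WT 1 to WT 5. Med13l, of the Mediator complex, gave 75.4 and 81.4 CPM against 51.1, 58.6, 57.0, 58.3 and 29.97 CPM. Both had their lowest level in WT 5. The median of the list was 0.21 and became 0.03 with the length offset, where 1 gene was called.

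Chromatin remodellers gave 6 of 16 genes called higher and 0 lower without WT 5. Chd3, of the NuRD complex, stood at 672 and 628 CPM in the KI libraries and at 457, 499, 514, 586 and 410 CPM in WT 1 to WT 5. Both KI libraries exceeded every WT library. Chd3, and Arid1a and Smarca4 of the BAF complex, had log2 fold changes of 0.36, 0.35 and 0.38 without WT 5. With the length offset the median of the list was 0.10, and 1 gene was called. Sodium and calcium channels had 0 of 11 called, potassium channels 1 of 11, axon guidance genes 1 of 16 and neuronal adhesion genes 4 of 16, all higher, with medians from 0.09 to 0.19 without WT 5 and from -0.03 to 0.03 with the length offset.

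**Figure D4:**
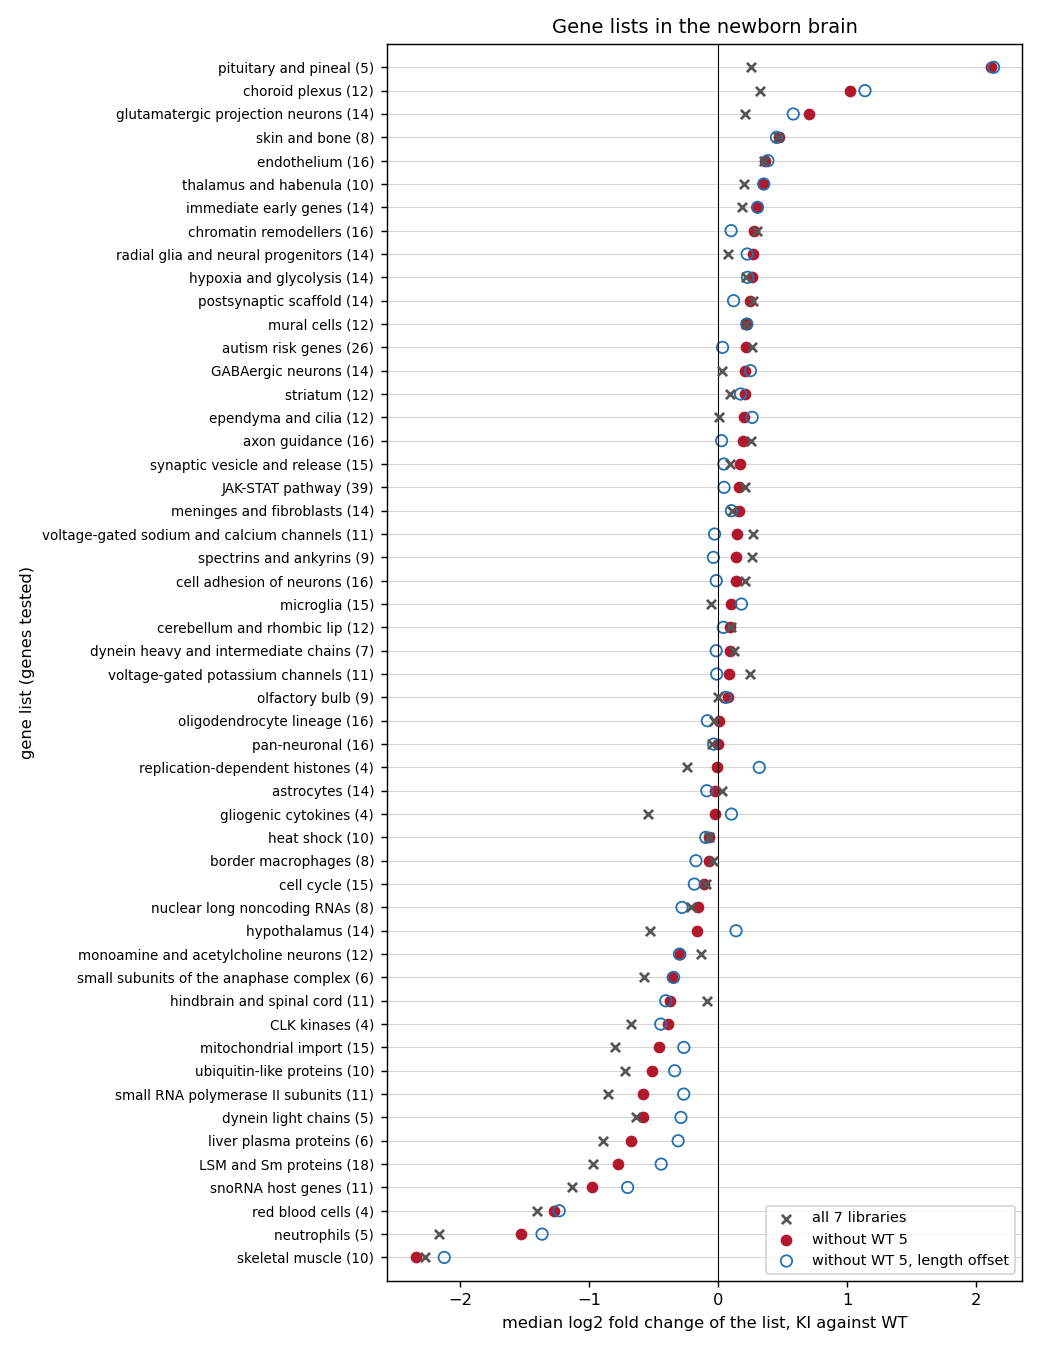
Median log2 fold change of KI against WT (x axis) for 52 gene lists with at least 4 genes tested (y axis, genes tested in brackets), with all 7 libraries (crosses), without WT 5 (filled circles) and without WT 5 with the length offset (open circles). LSM and Sm proteins, small polymerase subunits and mitochondrial import lie below 0 and move towards 0 with the offset, and endothelium, at 0.37 and 0.39, keeps its place.

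In the JAK-STAT pathway the median log2 fold change was 0.21 with all 7 libraries, over a range from -0.57 for Il11ra1 to 1.13 for Il6ra. Jak1 (chr4:100824972-100937887) stood at 188 and 183 CPM in KI 1 and KI 2 and at 160, 179, 186, 161 and 114 CPM in WT 1 to WT 5, and the groups overlapped. Its log2 fold change was 0.21 (SE 0.182, adjusted p = 0.719, edgeR) with all 7 libraries and 0.13 (SE 0.0803, adjusted p = 0.374, edgeR) without WT 5. Stat3 (chr11:100746412-100800854), the main transcription factor below gp130, was at 60.9 and 68.3 CPM in the KI libraries and at 52.1, 49.5, 54.2, 54.5 and 47.3 CPM in WT 1 to WT 5. Both KI libraries exceeded every WT library. Its log2 fold change of 0.33 was not called with all 7 libraries (SE 0.123, adjusted p = 0.408, edgeR) and that of 0.32 was called without WT 5 (SE 0.0850, adjusted p = 0.0710, edgeR), but 0.16 with the length offset was not (adjusted p = 0.286, edgeR).

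Cntfr (chr4:41604529-41644121), the receptor subunit for CNTF, was at 87.0 and 87.5 CPM in KI 1 and KI 2 and at 63.9, 74.8, 73.6, 69.7 and 66.6 CPM in WT 1 to WT 5, and the groups did not overlap. Its log2 fold change was 0.33 without WT 5 (SE 0.0821, adjusted p = 0.0612, edgeR) and 0.37 with the length offset (adjusted p = 0.0774, edgeR). Il6ra, the IL-6 receptor, was at 1.87 and 2.58 CPM against 0.848, 1.39, 1.23, 1.31 and 0.279 CPM (log2 fold change 0.92, adjusted p = 0.127 without WT 5, edgeR). Ptpn11, which encodes the phosphatase SHP2 and is the most abundant gene of the list, was at 211 and 217 CPM against 198, 191, 188, 198 and 119 CPM (adjusted p = 0.185 without WT 5, edgeR).

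Of all 39 pathway genes, Stat3 and Cntfr were called higher and 0 lower without WT 5, a share near the 4.14% of all genes, and 0 were called with all 7 libraries. With WT 1 and WT 4 as the only controls 4 were called higher, beside 553 of all 16013 genes tested. Both KI libraries lay above all WT libraries for 12 of the 39 and below for 0. These were the kinase genes Jak2, Jak3 and Tyk2, the factors Stat3 and Stat5b, the receptors Cntfr, Il6ra and Il4ra, and the inhibitors Socs3, Socs7, Pias4 and Ptpn11. Over all genes, 11.2% lay above all 5 WT libraries and 15.8% below. The median transcript length of the list, 4152 bases, is near the lower edge of the 4 to 8 kb class. Among all genes of that class 23.0% lay above and 3.76% below, and among genes of 2 to 4 kb 8.14% and 13.3%. Of 8 cytokines that act through gp130, 4 were expressed enough to test, and 0 were called.

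Of the astrocyte genes that gp130 signals switch on, Gfap, the intermediate filament of astrocytes, stood at 47.2 CPM in KI 1 and 84.0 CPM in KI 2 and at 47.8, 52.5, 58.5, 43.0 and 37.6 CPM in WT 1 to WT 5. KI 2 lay above all WT libraries and KI 1 within their range (adjusted p = 0.568 with all 7 libraries, edgeR). Aqp4, the water channel of astrocyte endfeet, was at 123 and 117 CPM in the KI libraries and at 179, 186, 198, 123 and 27.4 CPM in WT 1 to WT 5, and the groups overlapped (adjusted p = 0.133 without WT 5, edgeR). S100b, a calcium-binding protein of astrocytes, was at 9.90 and 10.7 CPM against 28.5, 16.8, 24.9, 13.2 and 14.6 CPM. Both KI libraries lay below every WT library, and S100b was called lower without WT 5 (log2 fold change -0.997, SE 0.29998, adjusted p = 0.0951, edgeR) but not with the length offset (log2 fold change -0.87, adjusted p = 0.165, edgeR). Of 14 astrocyte genes it was the 1 called without WT 5, whereas with the length offset 1 gene was called higher and 0 lower. Over all genes 6.32% were called lower without WT 5, and 1.35% higher with the offset. The summed level of the list was 2792 and 3002 CPM in the KI libraries and 2769 to 3430 CPM in the WT libraries.

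**Figure D5:**
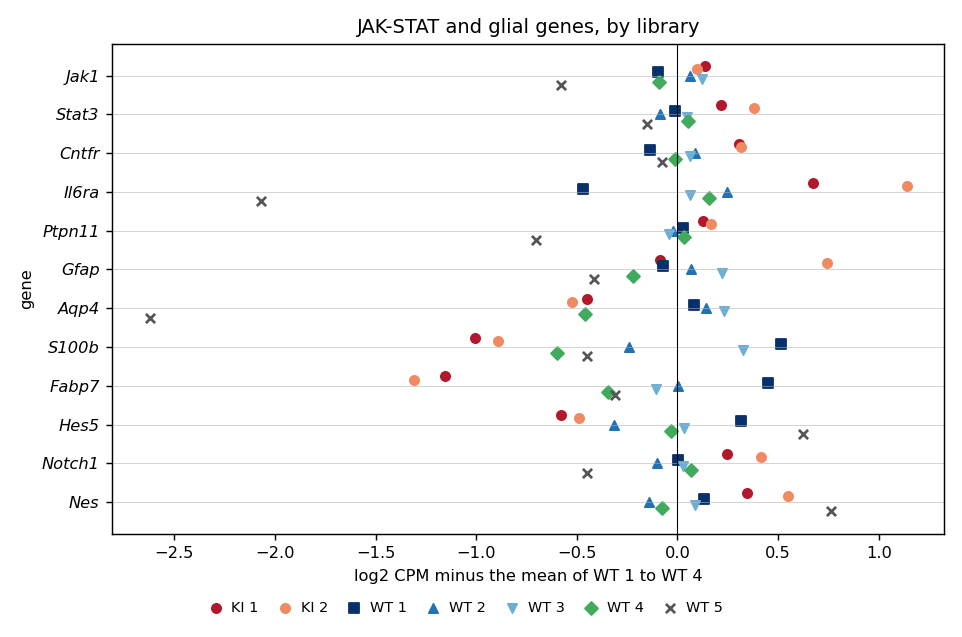
JAK-STAT pathway, astrocyte and progenitor genes in each brain library as log2 CPM minus the mean of WT 1 to WT 4 (x axis), one point per library. Stat3, Cntfr, Il6ra, Ptpn11 and Notch1 lie above all WT points in KI, S100b, Fabp7 and Hes5 below, and Jak1, Gfap, Aqp4 and Nes overlap.

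Among genes of radial glia and neural progenitors, Fabp7 had the largest difference called without WT 5. Fabp7 (chr10:57504687-57508256), the brain lipid-binding protein of radial glia, stood at 1370 and 1232 CPM in KI 1 and KI 2 and at 4167, 3051, 2833, 2402 and 2460 CPM in WT 1 to WT 5. Each KI library held less than any WT library. The log2 fold change was -1.20 (SE 0.232, adjusted p = 0.255, edgeR) with all 7 libraries, -1.24 (SE 0.200, adjusted p = 0.0363, edgeR) without WT 5 and -0.87 (adjusted p = 0.0681, edgeR) with the length offset. With WT 1 and WT 4 as the only controls it was -1.32 (adjusted p = 0.0645, edgeR).

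Other progenitor genes went in either direction. Notch1, a receptor that maintains progenitors, was at 58.5 and 66.0 CPM in the KI libraries and at 49.6, 46.1, 50.4, 51.8 and 36.2 CPM in WT 1 to WT 5, and was called higher without WT 5 (log2 fold change 0.35, adjusted p = 0.0612, edgeR). Nes, the progenitor filament nestin, was called higher without WT 5, although WT 5 itself exceeded both KI libraries (84.6 and 97.4 CPM in KI, 113 CPM in WT 5). Hes5, a target of Notch, was at 27.2 and 28.8 CPM against 50.4, 32.6, 41.4, 39.7 and 62.5 CPM, and with an adjusted p of 0.1003 (edgeR) it was not called. Of the 14 genes of the list, 2 were called higher and 1 lower, and the median was 0.27 without WT 5. Over all genes 4.14% were called higher and 6.32% lower. With the length offset 0 were called higher, Notch1 and Nes included, and 1, Fabp7, lower. The cell cycle list had 0 of 15 genes called, as had the oligodendrocyte lineage with 0 of 16 and a median of 0.01.

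Endothelial genes were called in 1 direction. Of 16 endothelial genes, 6 were called higher and 0 lower without WT 5, the median log2 fold change was 0.37, and both KI libraries lay above all WT libraries for 5. Over all genes 4.14% were called higher and 11.2% lay above all WT libraries. Flt1 and Kdr, the receptors for VEGF, stood at 42.1 and 39.0 CPM and at 69.1 and 65.7 CPM in the KI libraries. In WT 1 to WT 5, Flt1 was at 22.4, 29.3, 29.9, 22.8 and 8.38 CPM and Kdr at 39.9, 55.2, 48.8, 36.3 and 24.6 CPM. Pecam1, an adhesion molecule of endothelial junctions, was at 41.2 and 38.7 CPM against 23.7, 32.7, 27.5, 30.8 and 23.1 CPM.

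Eng, the coreceptor endoglin, had the smallest adjusted p of the list without WT 5 (log2 fold change 0.70, SE 0.139, adjusted p = 0.0389, edgeR) and was still called with the length offset (0.63, adjusted p = 0.0753, edgeR). Flt1, Kdr, Pecam1, Vwf and Slc2a1, the glucose transporter of the blood-brain barrier, were the others called, and for Slc2a1 WT 5 exceeded both KI libraries. With the length offset 2 endothelial genes were called and the median was 0.39. With WT 1 and WT 4 as the only controls, 8 were called higher, beside 553 of all 16013 genes tested, and the median was 0.57. Cldn5, a tight junction gene and after Slc2a1 the most abundant of the list, overlapped, with 80.6 and 102 CPM in KI and 71.6, 104, 70.8, 71.8 and 203 CPM in WT 1 to WT 5, and its log2 fold change was -0.19 with all 7 libraries and 0.21 without WT 5.

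Mural cells, the pericytes and smooth muscle around vessels, had 2 of 12 genes called higher, Abcc9 (0.51, adjusted p = 0.0715, edgeR) and Notch3 (0.41, adjusted p = 0.0912, edgeR), as log2 fold changes without WT 5. The share of all genes called higher in that fit was 4.14%. The pericyte receptor Pdgfrb, at 42.3 and 47.0 CPM in KI and 23.1, 39.98, 25.6, 28.3 and 26.1 CPM in WT 1 to WT 5, was not called (adjusted p = 0.103, edgeR). Meningeal and fibroblast genes spread widely among the WT libraries. Their summed level ran from 394 CPM in WT 1 to 2134 CPM in WT 2, with the KI libraries at 1031 and 1047 CPM, and 0 of 14 were called without WT 5. With WT 1 and WT 4 as the only controls, which held 394 and 488 CPM, 11 of the 14 were called higher and 6 of the 12 mural genes. In that fit 553 of all 16013 genes tested were called higher. Flt1, Kdr, Pecam1, Eng and Vwf were also at a higher level in WT 2 than in WT 1, and the part of attached connective tissue in their differences was not tested.

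Genes of low oxygen and glycolysis had 4 of 14 called higher and 0 lower without WT 5, against 4.14% of all genes called higher. Slc2a1, which is also in the endothelial list, was 1 of the 4. Vegfa, the ligand of Flt1 and Kdr, was at 124 and 123 CPM in KI 1 and KI 2 and at 96.8, 90.6, 104, 88.5 and 97.3 CPM in WT 1 to WT 5 (log2 fold change 0.40, SE 0.0825, adjusted p = 0.0411 without WT 5, edgeR). The groups did not overlap. Pdk1, which diverts pyruvate from the mitochondria, was at 112 and 101 CPM against 82.8, 97.1, 78.3, 79.5 and 65.5 CPM. The median of the list was 0.27, and 0.23 with the length offset, where 3 genes were called.

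Neuron classes were mixed. Of 16 pan-neuronal genes, 4 were called higher and 2 lower without WT 5, with a median of 0.00. Over all genes, 4.14% were called higher and 6.32% lower, with a median of 0.01. Syn1, a synaptic vesicle protein, was at 305 and 279 CPM in KI and 222, 246, 251, 233 and 201 CPM in WT 1 to WT 5, and Ina, a neurofilament, was also called higher (log2 fold change 0.40, adjusted p = 0.0495, edgeR). Stmn2, a tubulin-binding protein of growth cones with a shorter transcript, was called lower, at 2237 and 1980 CPM against 2691, 2808, 2502, 2572 and 3151 CPM. Uchl1, an abundant neuronal deubiquitinase, was not called (adjusted p = 0.742 without WT 5, edgeR) and was at 3122 CPM in WT 5 against 1200 to 1422 CPM in the other 6 libraries.

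Glutamatergic projection neuron genes had 3 of 14 called higher and 0 lower without WT 5, with a median of 0.71. The share of all genes called higher was 4.14%, and their median was 0.01. Slc17a7, a vesicular glutamate transporter, stood at 19.4 and 14.3 CPM in the KI libraries and at 3.87, 4.44, 4.81, 7.77 and 15.0 CPM in WT 1 to WT 5, and WT 5 lay between the KI libraries. Bcl11b, of deep cortical layers and striatum, was at 102 and 87.7 CPM against 53.6, 47.6, 49.3, 69.9 and 87.3 CPM. Cux2, of upper layers, was called as well (log2 fold change 0.35, adjusted p = 0.0814, edgeR). The list includes Tbr1, at 1.46 and 0.660 CPM in WT 2 and WT 3. With WT 1 and WT 4 as the only controls the median of the list was 0.40. In that fit 2 of its genes were called higher, beside 553 of all 16013 genes tested. Of 14 GABAergic and 12 monoamine and acetylcholine neuron genes, 0 were called without WT 5.

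Among the region lists few genes were called, beside 4.14% of all genes called higher and 6.32% lower without WT 5. The 11 hindbrain and spinal cord genes tested had a summed level of 168 and 219 CPM in the KI libraries and 425, 38.9, 367, 185 and 17.5 CPM in WT 1 to WT 5, and 0 were called. Choroid plexus genes summed to 1072 and 1163 CPM in KI and 132 to 2724 CPM in WT, with 0 of 12 called despite a median of 1.02 without WT 5. In the thalamus and habenula list 1 of 10 was called, Prkcd (log2 fold change 0.47, adjusted p = 0.0770, edgeR), and in the striatum list 1 was called higher and 1, the tachykinin gene Tac1, lower (-0.58, adjusted p = 0.0363, edgeR). Neither of these lists had a gene called with the length offset. Tph1 and Crx, genes of the pineal gland, were called higher without WT 5. Tph1 stood at 4.55 and 6.21 CPM in KI, at 0.0943 to 0.843 CPM in WT 1 to WT 4 and at 5.91 CPM in WT 5, which lay between the KI libraries.

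Of 15 microglial genes, Cx3cr1, the fractalkine receptor, was the 1 called, at 23.2 and 23.1 CPM in KI 1 and KI 2 and at 17.3, 17.7, 17.9, 13.4 and 11.5 CPM in WT 1 to WT 5 (log2 fold change 0.50, adjusted p = 0.0898 without WT 5, edgeR). The median of the list was 0.10, and 4.14% of all genes were called higher. Border macrophage genes had 0 of 8 called. Of 3 red cell genes tested without WT 5, 2 were called lower. Over all genes 6.32% were called lower. Of 5 neutrophil genes tested, 2 were called lower, at a summed level of the list of 7.78 CPM or less in every library.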

How the data were processed

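The authors sequenced paired-end libraries, aligned the reads to mm9 with TopHat2 and deposited counts per gene symbol, not normalized. HTSeq is named in the submitters' processing notes, and its options are not given in the sources used here. The 5 summary lines (ambiguous, unassigned and multiply mapped reads) were left out. Each of the 24391 gene rows was used, and 91.1% matched the NCBIM37 annotation, which gave transcript lengths.

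KI and WT libraries were compared with edgeR 4.0.16 (filterByExpr, TMM, quasi-likelihood test, Benjamini-Hochberg adjusted p under 0.1) in R 4.3.3, with all 7 libraries and without WT 5. Alternatives were DESeq2 1.42.0 (Wald test and size factors), no filter, limma 3.58.1 quality weights, Y-linked expression as a covariate, a loess offset on transcript length (span 0.3, degree 1), the replicate number as a block, an adjusted p under 0.05, and each library left out. Simulated counts served to test the code. The comparison with WT 1 and WT 4 alone was chosen after seeing the data.

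The 55 gene lists, which include the 2 chosen after values were seen (snoRNA host genes and CLK kinases), are described by counts and medians. Members, lists and rules were chosen with earlier results of these data known. The genes named were the 10 largest differences per direction (above), the 5 smallest p per direction, the most abundant and most extreme members of a list, Jak1, called JAK-STAT genes, Gfap, S100b and Aqp4; other list members were named after their values were seen. Some list members are not reported here. Mitochondrially encoded genes have no rows and were not analysed here. Figures used Python 3.11.15 with matplotlib 3.10.9.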

Additional observations from a re-analysis of the deposited data

Results flagged for a closer look

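In groups of 5 WT libraries, a value was taken up here when the gap between the most extreme library and its neighbour exceeded 0.710 of the whole range, which chance does in about 1 of 20 groups. Of 145 such groups, 25 passed, and in 24 of them the extreme library was WT 5. The groups come from the same 5 libraries and overlap in genes, and WT 5 was known beforehand to stand apart. Slopes and length classes were also taken relative to WT 1 to WT 4. The rate of 1 of 20 therefore does not apply to this count. The ratio of gap to range was 0.939 for the percentage of ambiguous reads and 0.719 for the slope on transcript length. Among classes of transcript length it was 0.789 for 1 to 2 kb, 0.927 for 2 to 4 kb and 0.715 for 4 to 8 kb. Among classes of gene span it was 0.804 under 5 kb, 0.898 for 5 to 20 kb, 0.719 for 20 to 100 kb and 0.794 for 100 kb and over.

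For the mean log2 CPM of lists the ratio was 0.782 for pan-neuronal genes, 0.827 for synaptic vesicle genes, 0.885 for postsynaptic scaffolds and 0.837 for potassium channels, each with WT 5 lowest. Single genes with WT 5 lowest were Shank2 (0.924), Ptpn11 (0.900), Grin2b (0.896), Ina (0.881), Shank1 (0.795), Med13l (0.795), Flt1 (0.773), Notch3 (0.766), Aqp4 (0.757) and Cux2 (0.743). For Uchl1 (0.824) WT 5 was highest. The 1 group with another library was microglia (0.763), in which WT 2 had a mean log2 CPM of 3.68 against 3.30 to 3.39 in the other WT libraries.

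The slope on transcript length was compared between tissues. For the same mice, the KI difference in brain exceeded the one in liver by 0.286 (exact permutation test, two-sided, p = 0.0476, the smallest that 21 arrangements can give). Over the 2 tissues compared with brain the adjusted p was 0.0952, and against skin the difference was 0.196 (exact permutation test, p = 0.238, adjusted p = 0.238). The brain slope exceeded the liver slope by 0.232 and 0.213 in the KI mice and by -0.0464, -0.00588, 0.0857, -0.0334 and -0.315 in WT 1 to WT 5.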

How the results depend on the processing

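With all 7 libraries, 0 genes were called by edgeR; DESeq2 called 604, sample quality weights 3220, and WT 1 and WT 4 as the only controls 1275. Leaving out 1 library gave 0 to 1698 calls, the latter without WT 5. The replicate block gave 2165 calls, but same-numbered libraries did not deviate together (correlation 0.0217 for number 1 and -0.0952 for number 2), so the numbers are not shown to pair the mice. Without WT 5, 1698 genes were called; DESeq2 called 2651, the length offset 816 and Y-linked expression as a covariate 564, and 654 genes passed the stricter threshold of 0.05. Leaving out a further library gave 0 (without KI 2) to 2285 (without WT 4), with 1 without KI 1 and 1114 without WT 3.

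With all 7 libraries and the length offset, the medians were -0.12 under 1 kb, -0.0701 for 1 to 2 kb and -0.0413 for 4 to 8 kb. For 2 to 4 kb the median ranged from -0.0386 to 0.00799 when 1 library was left out. Log2 fold changes that turned sign were those of Ptpn11 (-0.0112 with the length offset), Gfap (-0.0185 to 0.83 over the libraries left out, lowest without KI 2) and Cldn5, which was 0.36 with WT 1 and WT 4 as controls, 0.11 with the length offset, 0.0675 with the replicate block, 0.16 with quality weights and -0.37 to 0.21 over the libraries left out. The cause was not tested. Of 1170 values for single genes 866 kept their direction and their side of the threshold and 297 passed it only under an alternative, and of 572 list medians 536 moved by less than the spread between WT libraries. At these depths a count of 0 allows up to 3 reads per library, and genes below the count filter were not tested.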

Other observations

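Dctn1, the dynein partner that was called among the heavy and intermediate chains, was at 307 and 306 CPM in KI 1 and KI 2 and at 207, 242, 253, 257 and 204 CPM in WT 1 to WT 5. The KI libraries exceeded every WT library. Of 14 immediate early genes, Jun was the 1 called (82.5 and 75.6 CPM in KI, 59.3 to 73.2 CPM in WT). The share of all genes called higher without WT 5 was 4.14%.

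Among genes that were lower, Cartpt, a hypothalamic neuropeptide, stood at 6.97 and 7.26 CPM in KI 1 and KI 2 and at 13.02, 9.37, 13.6, 11.6 and 14.2 CPM in WT 1 to WT 5. The other 13 hypothalamic genes tested were not called. Alas2, of heme synthesis in erythroid cells, was called lower without WT 5, but WT 5, at 4.91 CPM, lay between the KI libraries at 4.16 and 5.46 CPM. S100a9, of neutrophils, was at 0.753 and 0.290 CPM in KI and 2.63, 2.95, 1.04, 1.79 and 3.39 CPM in WT 1 to WT 5. Krt10, a keratin of skin, was at 10.1 and 10.39 CPM against 16.8 to 29.97 CPM. Over the libraries, the keratins Krt1, Krt5 and Krt14 averaged 27.4, 0.111 and 0.403 CPM. Cerebellar, olfactory bulb and skeletal muscle lists had 0 genes called without WT 5.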
